A study of Bos taurus with 8 samples.

Results

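Osteoprotegerin, RANKL and a set of tumor necrosis factor (TNF) receptors were examined in bovine articular chondrocytes of the superficial zone (SZCs) and of the deep zone (DZCs). The 8 genes, *TNFRSF11B*, *TNFSF11*, *TNFRSF11A*, *TNFRSF1A*, *TNFRSF1B*, *TNFRSF12A*, *TNFRSF21* and *FAS*, were picked by name from a count table of 24596 genes, and each had a single row there. The study used RNA-Seq to ask which genes set the lubricin-making cells of the joint surface apart from the cells beneath them. Cartilage came from the knees of wild type calves aged 1 to 2 weeks. Slices of the same cores were taken from the surface and, after a thick middle slice had been discarded, from the deep end, and the cells were released with enzymes. The cells of both zones were then cultured for 3 days in serum-containing medium with no other treatment, and 2 biological replicates were sequenced per zone. All levels below therefore describe cultured cells and not the cartilage they came from.

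Osteoprotegerin, RANKL and RANK form a three-part system that governs the making of osteoclasts, the cells that resorb bone and calcified cartilage. RANKL, encoded by *TNFSF11*, binds its receptor RANK, encoded by *TNFRSF11A*, on osteoclast precursors, and osteoprotegerin, the secreted product of *TNFRSF11B*, is a decoy receptor that captures RANKL before it reaches RANK. The other receptors are anchored in the cell membrane. TNFR1 (*TNFRSF1A*) and TNFR2 (*TNFRSF1B*) bind TNF, a cytokine that drives cartilage breakdown in arthritis, Fn14 (*TNFRSF12A*) binds TWEAK, and DR6 (*TNFRSF21*) and *FAS* carry a death domain, an inner segment through which a receptor can start cell death.

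The 4 libraries held between 19918970 and 21890549 counts, so 3 counts, the floor used here, stood for 0.129 to 0.187 CPM (counts scaled to a common library size). CPM are scaled here by the trimmed mean of *M* values (TMM), whose factors ran from 0.735 to 1.14, and *COL2A1* took from 6.31% of counts in SZC replicate 2 to 24.5% in DZC replicate 1. Markers of cell types were read beside the labels. All 8 chondrocyte markers were counted in every library, and 1 of them, the matrix protein gene *MATN3*, passed the test of the zones, higher in DZCs, with an FDR of 0.00212 by edgeR's exact test that was 0.855 without SZC replicate 1, 0.111 without SZC replicate 2 and 0.109 with library totals. Of the 8, 3 passed in DESeq2, which called 3.09% of all genes, against 2.93% in edgeR's exact test. All 5 superficial zone markers were higher in SZCs, with *PRG4*, the lubricin gene, at a log2 fold change of 6.08 (SE 0.70). The study reported them as higher in SZCs from these same libraries, so this is no independent check of the labels. In DESeq2, 4 of the 5 passed, and *WIF1*, at an FDR of 0.053, did not. Markers of bone-forming and hypertrophic cells were summed at 4.91 and 7.45 CPM in the SZC libraries and at 16.3 and 73.6 CPM in DZC replicates 1 and 2. The members did not all move together. *MMP13*, *IBSP*, *ALPL*, *COL10A1* and *SP7* had 468, 268, 445, 221 and 140 counts in DZC replicate 2. In the other libraries these genes had at most 23 counts. *IHH*, a signal of prehypertrophic cells, had 13 and 5 counts in SZCs, 194 in DZC replicate 1 and 48 in DZC replicate 2. Of these 9 genes *IHH* passed, at a log2 fold change of -4.12 and an FDR of 0.016 by edgeR's exact test, but its FDR was 0.249 without SZC replicate 1, 0.552 without SZC replicate 2 and 0.0588 without DZC replicate 1, where the log2 fold change was -2.40. With all libraries, 4 of the 9 were tested, and edgeR's exact test called 2.93% of all genes.

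Osteoprotegerin was the gene of this set that differed most between the zones. *TNFRSF11B* (ENSBTAG00000007423) had 1685 and 1506 counts in SZC replicates 1 and 2, against 173 and 202 in the DZC replicates. The levels were 76.6 and 64.9 CPM in SZC replicates 1 and 2 and 10.8 and 9.05 CPM in DZC replicates 1 and 2. Both SZC libraries lay far above both DZC libraries, and the replicates of each zone lay close together. SZCs averaged 70.7 ± 8.25 CPM (SD, n = 2), against 9.91 ± 1.21 CPM for DZCs (SD, n = 2). On the log2 scale SZCs exceeded DZCs by 2.84 (SE 0.35, 95% interval 2.15 to 3.53), a 7.14-fold difference with an interval of 4.43 to 11.5, and its FDR was 4.09e-11 by edgeR's exact test. The quasi-likelihood test of edgeR, which called 0 genes in these libraries and gave 1126 genes an unadjusted p below 0.05, gave *TNFRSF11B* an unadjusted p of 7.07e-05 and an FDR of 0.0784. With each library left out in turn, the log2 fold change stayed between 2.71 and 2.97, with FDR values from 3.35e-15 to 0.00488 in the exact test. In such bulk samples, fewer cells that express a gene and less RNA of it per cell cannot be told apart.

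**Figure D1:**
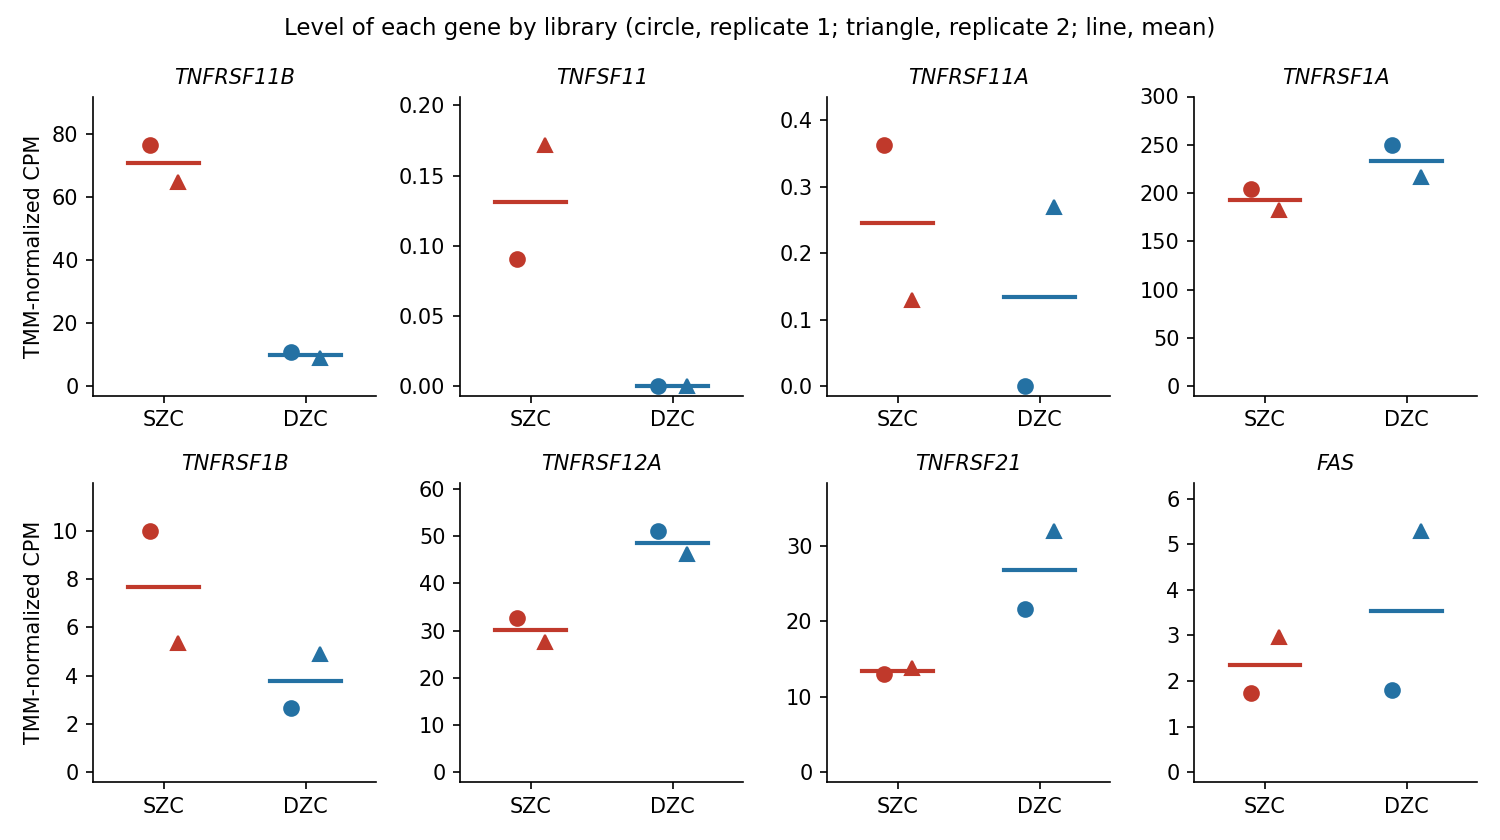
Each panel plots the TMM-normalized CPM of a gene in the SZC libraries (red) and DZC libraries (blue), with circles for replicate 1, triangles for replicate 2 and a line at the mean of each zone. The vertical scales differ between panels. *TNFRSF11B* sits at 64.9 CPM or more in SZCs and at 10.8 CPM or less in DZCs, and *TNFSF11* has no counts in either DZC library.

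Of 12857 genes tested, 377 differed between the zones, or 2.93%, with 2.23% higher in SZCs and 0.700% higher in DZCs. The SZC share of those calls was 76.1% with TMM and 86.7% with library totals. Of the 8 genes, 6 had enough counts to be tested, and *TNFRSF11B* alone passed the 0.05 threshold of edgeR's exact test. Among the 377 genes, *TNFRSF11B* ranked 12 by FDR, while by fold it ranked 138 of the 287 genes that were higher in SZCs. Its difference was thus of middling size among those genes and was measured with little spread. The log2 ratio of replicate 1 to replicate 2 was 0.24 in SZCs and 0.25 in DZCs. Across the genes tested, the median size of this ratio was 0.245 in SZCs and 0.561 in DZCs, so the DZC libraries agreed more closely on *TNFRSF11B* than on most genes. In the RefSeq annotation of a later cow assembly (ARS-UCD2.0) the gene *COLEC10* overlaps *TNFRSF11B*, and it was not analysed here. The counts do not use strand, so reads of overlapping genes cannot be told apart.

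Cells other than chondrocytes also make osteoprotegerin, and their markers were read beside it. Fibroblast and tendon markers, of which 0 of 5 tested genes passed, summed to 12663 and 17528 CPM in SZC replicates 1 and 2 and to 2798 and 10590 CPM in DZC replicates 1 and 2. Their median log2 fold change was 0.75, against -0.04 over all genes, of which edgeR's exact test called 2.93%. The sum differed several-fold between the DZC libraries, at which *TNFRSF11B* was 10.8 and 9.05 CPM. Most of each sum came from *COL1A1* and *COL3A1*. The genes of that list with the smallest p were *COL3A1*, at a log2 fold change of 1.44 (SE 0.57, FDR 0.256 by edgeR's exact test), and *PDGFRA*, at 0.75 (SE 0.60, FDR 0.893). *COL1A1*, at 0.95 (SE 0.83), and *THY1*, at 0.19 (SE 0.73), were also positive, while *SCX* went the other way, at -0.30 (SE 0.66). Endothelial markers, of which 0 of 4 tested genes passed, summed to 5.32 and 10.6 CPM in SZCs and to 3.86 and 7.80 CPM in DZCs. *KDR* had 35 and 83 counts in SZCs, 0 in DZC replicate 1 and 15 in DZC replicate 2, so its SZC libraries lay above the DZC libraries as those of *TNFRSF11B* did, with a log2 fold change of 2.88 (SE 1.24, FDR 0.435 by edgeR's exact test). *PECAM1*, with 8 and 45 counts in SZCs and 2 and 18 in DZCs, overlapped between zones (FDR 0.948 by the same edgeR test), and *CLDN5* had at most 1 count in any library. *VWF* went the other way, with 2.23 and 3.23 CPM in SZCs and 3.36 and 4.48 CPM in DZCs, and a log2 fold change of -0.52 (SE 0.59, FDR 0.986 by the same edgeR test). Lymphocyte markers, with 6 of 6 genes at no more than 3 counts everywhere and *CD2* and *MS4A1* at 0, summed to at most 0.345 CPM. The part of such cells in the level of *TNFRSF11B* was not tested.

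RANKL and its receptor were at the limit of what these libraries can show. *TNFSF11* (ENSBTAG00000008924) was counted 2 and 4 times in SZC replicates 1 and 2 and 0 times in both DZC libraries. The 6 counts of the SZC libraries together gave 0.133 CPM, with an exact Poisson 95% interval of 0.0487 to 0.289 CPM, and the 0 counts of the DZC libraries together had an upper limit of 0.0961 CPM by the same method (0.0782 CPM by the floor of 3 counts). Such intervals and limits reflect counting error alone, as reads copied from 1 molecule by PCR are not separate observations. SZC replicate 2 lay just above 3 counts and the other libraries below, so no fold change is given. *TNFRSF11A* (ENSBTAG00000007569) had 8 and 3 counts in SZC replicates 1 and 2, against 0 and 6 in the DZC replicates, levels of 0.363, 0.129, 0 and 0.269 CPM. The zones overlapped, and their totals were 11 and 6 counts. Both genes fell below edgeR's default filter on low counts. Without a filter, the exact test gave *TNFSF11* an FDR of 0.793 and *TNFRSF11A* one of 1. At this depth neither gene could be shown to differ by zone. A ratio of *TNFRSF11B* to *TNFSF11* within libraries had been planned, but it was not computed, because *TNFSF11* did not exceed 3 counts in each library.

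RANK marks osteoclast precursors, so markers of osteoclasts and macrophages were read beside its few counts. Of the 12 markers, 8 were tested and 0 passed in edgeR's exact test, which called 2.93% of all genes. Their sum was 359 and 415 CPM in SZCs and 281 and 333 CPM in DZCs, most of it from *CTSK*, a collagen-cutting protease that chondrocytes also make, at 258 to 354 CPM. *CALCR* had 0 counts in every library and *DCSTAMP*, a fusion gene of osteoclasts, had 3 counts in SZC replicate 2 and 0 elsewhere. Other markers were well counted. *CD14*, a monocyte receptor gene, had 264 and 374 counts in SZCs and 63 and 147 in DZCs, higher in both SZC libraries, with a log2 fold change of 1.41 (SE 0.50, FDR 0.142 by edgeR's exact test). *ACP5*, an osteoclast phosphatase gene, had 26 and 29 counts in SZCs and 50 and 84 in DZCs, the reverse order, with a log2 fold change of -1.50 (SE 0.61, FDR 0.278), and *OSCAR* had 74 to 1140 counts. The general leukocyte gene *PTPRC* had 6 and 14 counts in SZC replicates 1 and 2, against 0 and 9 in the DZC replicates, so like *TNFRSF11A* it had 0 counts in DZC replicate 1. The part of these cells in the counts of *TNFRSF11A* was not tested. *TNFSF11* had 0 counts in DZC replicate 2, the library with the highest summed level of hypertrophic and bone-forming markers. By the exact Poisson method above, its upper limit there was 0.165 CPM, against a level of 0.172 CPM in SZC replicate 2. The part of hypertrophic and bone-forming cells in the level of *TNFSF11* was not tested.

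The receptors for TNF were both expressed, and neither passed the test. *TNFRSF1A* (ENSBTAG00000004211) had 4500 and 4221 counts in SZC replicates 1 and 2, against 4023 and 4833 in the DZC replicates. Its levels were 204 and 182 CPM in SZCs and 250 and 217 CPM in DZCs, so the DZC libraries lay above the SZC libraries by a margin smaller than that between replicates. The log2 fold change was -0.27 (SE 0.35, 95% interval -0.96 to 0.42), with an FDR of 0.994 by edgeR's exact test. This interval leaves room for a level up to 1.95-fold higher in DZCs. Scaling by library totals in place of TMM turned the log2 fold change to 0.048, and the median of all genes tested moved from -0.04 to 0.26. Relative to that median it was -0.23 with TMM and -0.21 with library totals.

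*TNFRSF1B* (ENSBTAG00000024928) had 220 and 124 counts in SZC replicates 1 and 2, against 43 and 109 in the DZC replicates. Its levels were 9.99 and 5.34 CPM in SZCs and 2.67 and 4.89 CPM in DZCs. The zones did not overlap, but SZC replicate 2 and DZC replicate 2 nearly met. The replicates differed by 0.90 on the log2 scale in SZCs, more than in 90% of genes, for which 0.844 was the bound, and by -0.87 in DZCs. The log2 fold change was 1.01 (SE 0.62, 95% interval -0.20 to 2.23), with an FDR of 0.758 by edgeR's exact test. Without DZC replicate 2 the log2 fold change was 1.53 and its FDR 0.0448, in a fit that called 20.7% of all genes. Without SZC replicate 1 it was 0.49, with an FDR of 1.

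*TNFRSF12A* (ENSBTAG00000012082), the TWEAK receptor gene, had 717 and 639 counts in SZC replicates 1 and 2, against 821 and 1030 in the DZC replicates. The levels were 32.6 and 27.5 CPM in SZCs and 51.1 and 46.2 CPM in DZCs. Both DZC libraries lay above both SZC libraries, with close replicates in each zone. SZCs over DZCs gave a log2 fold change of -0.69 (SE 0.34, 95% interval -1.36 to -0.03), or a 1.62-fold higher level in DZCs. Its unadjusted p was 0.0436, and its FDR of 0.51 by edgeR's exact test missed the threshold. Without DZC replicate 2 the FDR was 0.0461, at a log2 fold change of -0.75, in the fit that called 20.7% of all genes. With library totals in place of TMM the log2 fold change was -0.38, with an FDR of 1. Relative to the median of all genes it was -0.65 with TMM and -0.64 with library totals.

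Of the death domain receptors that do not bind TNF, neither passed the test. *TNFRSF21* (ENSBTAG00000020054) had 286 and 320 counts in SZC replicates 1 and 2, against 347 and 714 in the DZC replicates. Its levels were 13.0 and 13.8 CPM in SZCs and 21.6 and 32.0 CPM in DZCs. Both DZC libraries were higher than both SZC libraries, and the DZC libraries lay farther from each other than the SZC libraries did. Its log2 fold change was -1.0 (SE 0.40, 95% interval -1.78 to -0.22), with an unadjusted p of 0.0129 and an FDR of 0.232 by edgeR's exact test. Without DZC replicate 1 the log2 fold change was -1.25 with an FDR of 0.0011, and in that fit 6.67% of all genes passed.

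*FAS* (ENSBTAG00000010785) had 38 and 69 counts in SZC replicates 1 and 2, against 29 and 118 in the DZC replicates. The levels were 1.73 and 2.97 CPM in SZCs and 1.80 and 5.29 CPM in DZCs. The zones overlapped, since DZC replicate 1 lay among the SZC libraries and only DZC replicate 2 stood above them. For the zones as a whole, the log2 fold change was -0.60 (SE 0.76, 95% interval -2.09 to 0.89), with an FDR of 0.995 by edgeR's exact test, and it was 0.40 without DZC replicate 2. *ACTA2*, the smooth muscle actin gene that lies next to *FAS* in RefSeq, had 254 and 2164 counts in SZC replicates 1 and 2, against 855 and 6938 in the DZC replicates. It too was higher in replicate 2 of each zone, and its part in the counts of *FAS* was not tested.

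**Figure D2:**
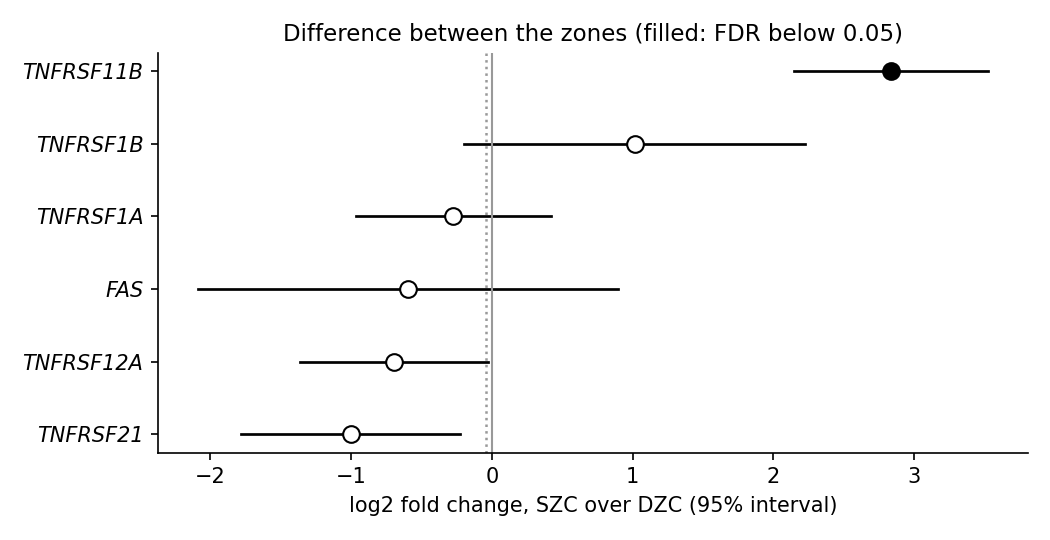
The log2 fold change of SZCs over DZCs (horizontal axis) is plotted with its 95% interval for the 6 genes that were tested, with a solid line at 0 and a dotted line at the median of all genes. Filled points had an FDR below 0.05 (edgeR, exact test). *TNFRSF11B* is the filled point, at 2.84, and its interval does not meet those of *TNFRSF1A*, *FAS*, *TNFRSF12A* and *TNFRSF21*.

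Among the 6 tested genes, the SZC libraries lay above the DZC libraries for *TNFRSF11B* and *TNFRSF1B* and below them for *TNFRSF1A*, *TNFRSF12A* and *TNFRSF21*. Of all genes tested, 21.0% had both SZC libraries above both DZC libraries and 20.5% had the reverse. With 2 libraries per zone, such a separation is common, and it was met by 5 of these 6 genes, all but *FAS*. The median log2 fold change of the 6 was -0.44, against -0.04 over all genes.

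**Figure D3:**
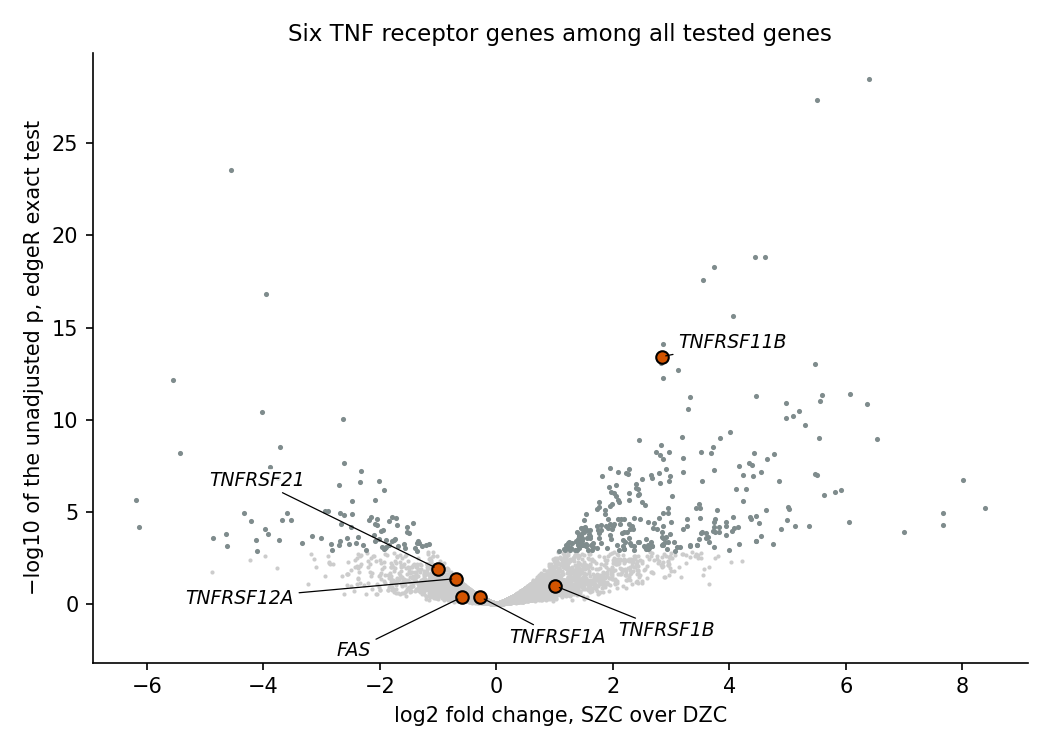
Each point is a gene, with its log2 fold change of SZCs over DZCs on the horizontal axis and the negative log10 of its unadjusted p in edgeR's exact test on the vertical axis. Darker points had an FDR below 0.05, and the 6 tested genes of the set are ringed. *TNFRSF11B* lies among the strongest p-values at a fold change exceeded by many other genes, while the other 5 lie among the genes that did not pass.

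A comparison within libraries removes the effect of scaling. The log2 ratio of *TNFRSF11B* to *TNFRSF1A* counts was -1.42 and -1.49 for SZC replicates 1 and 2, against -4.54 and -4.58 for the DZC replicates. The replicates of each zone differed by far less than the zones, whose means lay 3.11 apart on the log2 scale. Against *TNFRSF12A*, the ratio was 1.23 and 1.24 in SZCs and -2.25 and -2.35 in DZCs, a difference of 3.53, and against *TNFRSF21* the difference was 3.81. The smallest of the 5 differences that involve *TNFRSF11B* was that against *TNFRSF1B*, 1.82. In all 5 pairs the zones did not overlap, but neither did they in 11 of the 15 pairs that the 6 genes form, so such separation was common among these ratios. These 5 pairs share *TNFRSF11B*, so they restate its difference and are not separate observations. The exact two-sided permutation test gives p = 0.333 for each of them, the smallest p that 2 libraries against 2 allow, so the design cannot reach 0.05 here. Adjusted over the 15 pairs, that p was 0.454. These ratios compare counts of genes of unknown length in these libraries, so their differences between zones can be read and their levels cannot.

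The ligands of these receptors were looked for in the same cells, paired with their receptors after the values were seen. *TNF* was counted 1 time in each SZC library and 0 times in each DZC library, and *LTA*, which binds the same receptors, at most 2 times in any library. *FASLG*, the ligand of *FAS*, had at most 1 count in any library. *TNFSF10*, the gene of TRAIL, a death ligand that osteoprotegerin can also bind, had 2 counts in DZC replicate 2 and 0 elsewhere. *TNFSF12*, the gene of TWEAK, had 356 and 398 counts in SZC replicates 1 and 2, against 440 and 204 in the DZC replicates. Its DZC levels, 27.4 and 9.14 CPM, lay on either side of the SZC levels of 16.2 and 17.1 CPM, and its log2 fold change was -0.13 (SE 0.59, FDR 1 by edgeR's exact test). Of the ligands paired here with receptors of the set, TWEAK was the one with more than 4 counts in each library.

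The rest of the receptor and ligand family was read from lists. Of 22 other TNF receptors, 16 had a row under that name and 8 were tested. Of these, 1 was higher in SZCs and 0 in DZCs, with a median log2 fold change of 0.08. Over all genes tested, 2.23% were higher in SZCs and 0.700% in DZCs. DESeq2, which called 3.09% of all genes, called 2 of the 8. The quasi-likelihood test with the replicate block (2.70%) also called 2, and library totals (2.58%) called 0. The gene that passed in edgeR's exact test was *TNFRSF19*, the receptor TROY. It had 145 and 146 counts in SZC replicates 1 and 2, against 2 and 25 in the DZC replicates. Its log2 fold change was 3.32 (SE 0.90, FDR 0.0269 by edgeR's exact test). Both DZC libraries were low, but they differed from each other by more than the SZC libraries, and the log2 fold change was 2.52 without DZC replicate 1 and 5.64 without DZC replicate 2. The FDR of *TNFRSF19* was 0.489 without SZC replicate 1, 0.294 without SZC replicate 2 and 0.138 with libraries scaled by their totals. *NGFR*, a neurotrophin receptor singled out after its values were seen, had 91 and 175 counts in SZC replicates 1 and 2, against 2 and 25 in the DZC replicates. Its log2 fold change was 3.19 (SE 0.95), with an FDR of 0.0648 by edgeR's exact test and 0.026 in DESeq2, and the log2 fold change was 2.38 without DZC replicate 1 and 5.50 without DZC replicate 2. Of the other receptors, 6 had 0 counts in every library, among them *EDAR* and *CD27*.

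Of 17 other TNF ligands, 6 were tested and 0 passed in edgeR's exact test, and 0 had an unadjusted p below 0.05. Their median log2 fold change was -0.23. The ligands with the smallest p were *TNFSF13*, the gene of APRIL, with a log2 fold change of 1.08 (SE 0.68) and an FDR of 0.797, and *TNFSF18*, with one of 1.37 (SE 0.88) and an FDR of 0.802. Of the 17, 7 did not exceed 3 counts in any library. DESeq2 also called 0 of the 6, and 1 passed without DZC replicate 2, in the fit that called 20.7% of all genes.

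The proteins that carry signals from these receptors were read next. Of 25 genes of receptor adaptors and death signalling, 24 had a row and all 24 were tested, with 0 passing in edgeR's exact test, 2 at an unadjusted p below 0.05 and 0 called by DESeq2. Over all genes tested, 9.09% had such a p, so this count was near the background. The median log2 fold change of the list was -0.09. The 2 were *TRAF1* and *FADD*. *TRAF1*, an adaptor of TNFR2, had 246 and 217 counts in SZC replicates 1 and 2, against 443 and 334 in the DZC replicates, with a log2 fold change of -1.05 (SE 0.47, FDR 0.391). *FADD*, which joins *FAS* to caspases, had 385 and 361 counts in SZC replicates 1 and 2, against 647 and 473 in the DZC replicates, with a log2 fold change of -0.89 (SE 0.45, FDR 0.536). For both genes the DZC libraries lay above the SZC libraries, and DZC replicate 1 was the higher of the DZC libraries. Without DZC replicate 2, 6 of the 24 passed, in the fit that called 20.7% of all genes.

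Of 11 genes that act with RANKL and osteoprotegerin in osteoclast formation, 8 were tested and 0 passed in edgeR's exact test, with 3 at an unadjusted p below 0.05, 0 called by DESeq2 and a median log2 fold change of 0.08. The share of all genes at such a p was 9.09%. *CSF1*, the growth factor that osteoclast precursors need beside RANKL, had 439 and 712 counts in SZC replicates 1 and 2, against 231 and 701 in the DZC replicates. Its log2 fold change was 0.14 (SE 0.51, FDR 1 by the same edgeR test). *TNFAIP6*, a secreted hyaluronan-binding protein induced by TNF, had the smallest p of the list and had 38 and 55 counts in SZC replicates 1 and 2, against 136 and 117 in the DZC replicates. Its log2 fold change was -1.74 (SE 0.59, FDR 0.116 by edgeR's exact test). *VDR*, the vitamin D receptor, which raises RANKL in bone cells, had a log2 fold change of -1.11 (SE 0.50, FDR 0.405 by the same edgeR test). Without DZC replicate 2, 5 of the 8 passed, again in the fit that called 20.7% of all genes.

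**Figure D4:**
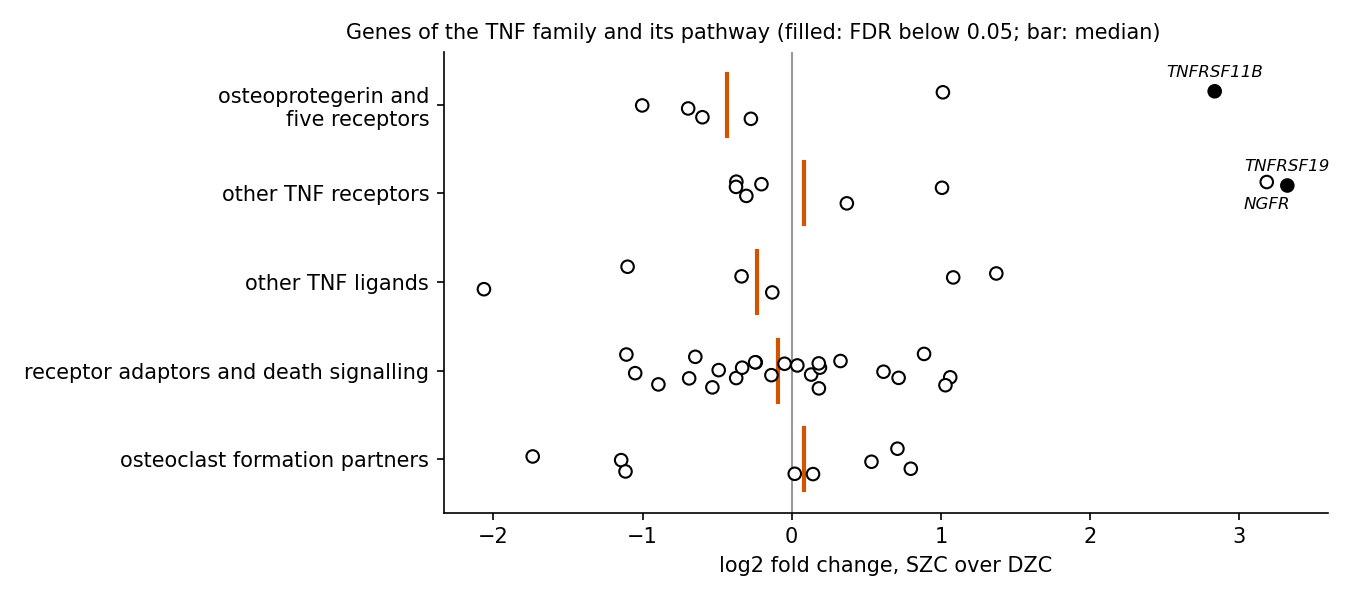
The log2 fold change of SZCs over DZCs (horizontal axis) is plotted for the tested genes of the set and of the 4 lists of other receptors, ligands, adaptors and osteoclast formation partners, with filled points for genes with an FDR below 0.05 (edgeR, exact test) and a bar at each list's median. *TNFRSF11B* and *TNFRSF19* are the filled points, and the 5 medians lie between -0.44 and 0.08. The vertical spread within a list has no meaning.

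Genes whose levels followed *TNFRSF11B* most closely over the 4 libraries were found by the distance between log2(CPM + 1) values centred on each gene's mean, among 12856 other genes. The nearest was *KIAA1211*, at a distance of 0.0706, with 78.3 and 70.6 CPM in SZCs and 11.1 and 9.41 CPM in DZCs. *ITGA9*, an integrin subunit gene, followed at 0.179, *GLT8D2* at 0.21 and *BMPER*, which encodes a secreted regulator of BMP signals, at 0.365. The remaining 1 of the 5 nearest, ENSBTAG00000046308, has no name in the deposited tables. These distances rest on 4 libraries of 2 zones and are a description only.

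The choice of processing affected these genes unequally. *TNFRSF11B* kept a log2 fold change between 2.71 and 3.16 over 11 alternatives and passed the threshold in 10 of them, all but the quasi-likelihood test without a block. It was the 1 gene of the set to pass with the replicate block, which called 2.70% of all genes, in DESeq2 (3.09%), with no filter (2.06%), with a filter of more than 1 CPM in 2 libraries (3.04%) and with library totals (2.58%). The same held without SZC replicate 1 (0.436%) and without SZC replicate 2 (1.13%). *FAS* ranged from -1.16 to 0.40 and passed in 0. *TNFRSF1B*, *TNFRSF12A* and *TNFRSF21* each passed in 1, when a DZC library was left out. Leaving out a library leaves its zone with 1 library, which is then assumed to vary like the other zone.

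**Figure D5:**
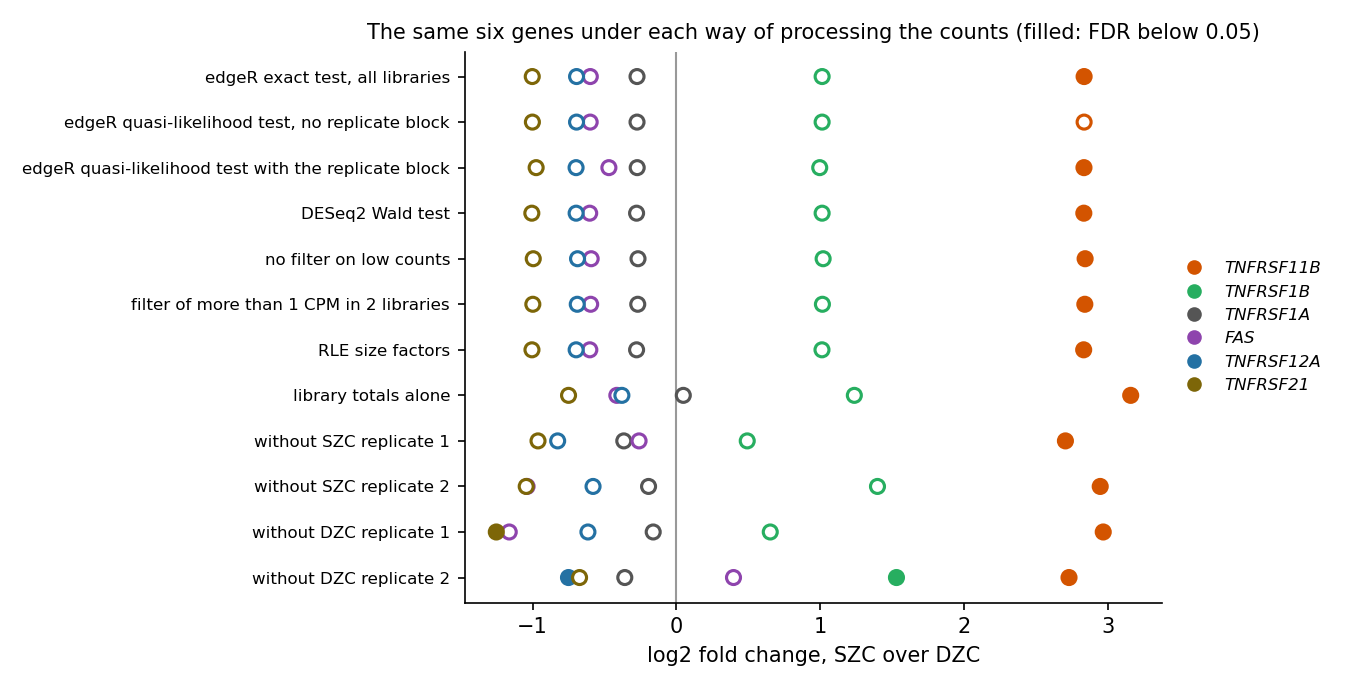
Each row is a way of processing the counts and each point the log2 fold change of SZCs over DZCs (horizontal axis) of a gene, in the color given by the key, filled where its FDR was below 0.05. The *TNFRSF11B* points lie between 2.71 and 3.16 in all rows, while the *FAS* points lie on both sides of 0.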

How the data were processed

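The authors sequenced SMART-Seq libraries from 2 SZC and 2 DZC cultures, aligned the reads with STAR 2.5.2b to the Ensembl UMD3.1 cow genome, and deposited unnormalized read counts per gene, made without regard to strand. Their table of fold changes and FDR values was not used, except that 8 blank gene names were filled from it. The ATAC-Seq samples were not analysed here.

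Tests were run in edgeR 4.0.16 (R 4.3.3). Genes were kept by edgeR's default filter, a choice made here. Following the study's methods, TMM scaling was applied, and SZCs were set against DZCs by the exact test, with Benjamini-Hochberg adjustment over 12857 genes at an FDR of 0.05. Standard errors and 95% intervals come from the gene-wise dispersion, which edgeR draws toward the trend over all genes. They cover only the spread between these libraries and do not measure a gene's own replicate spread alone. Gene lengths of this build were not used, so levels are not compared between genes. The alternatives were the quasi-likelihood test with and without the replicate number as a block, DESeq2 1.42.0, other filters and scalings, and leaving out each library. The fitting steps were tested on simulated data.

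The genes and lists were chosen with earlier results of these data known. Named genes are the 8 genes, list genes past the threshold (up to 4 by fold) or otherwise the 2 with the smallest p, and the 5 genes most like *TNFRSF11B*. Others were named after their values were seen. No library was a copy of another: between replicates, chi-square per degree of freedom was 61.9 in SZCs and 303 in DZCs.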

Additional observations from a re-analysis of the deposited data

How the results depend on the processing

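The number of genes that differed, 377, was 0 in the quasi-likelihood test without a block and ran from 58 to 2725 with each library left out, lowest without SZC replicate 1 and highest without DZC replicate 2. Among the 8 genes, 0 passed in that test, against 1, and 1 to 3 passed with a library left out. *TNFRSF11B* had a log2 fold change of 2.84 in that test (FDR 0.0784), and its FDR ran from 3.35e-15 to 0.0784 over the 11 alternatives. With a library left out, its log2 fold change ran from 2.71 to 2.97, that of *TNFRSF1A* from -0.37 to -0.16, that of *TNFRSF1B* from 0.49 to 1.53, that of *TNFRSF12A* from -0.83 to -0.58, that of *TNFRSF21* from -1.25 to -0.67 and that of *FAS* from -1.16 to 0.40. *TNFRSF1A* turned to 0.048 with library totals alone, where the median of all genes moved from -0.04 to 0.26. Relative to that median *TNFRSF1A* was at -0.23 with TMM and -0.21 with library totals. The causes of the other changes were not tested.

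The zones share replicate numbers, but the sources used here do not tie same numbers to 1 joint. Their deviations from the zone means had a correlation of 0.42 across genes. With the replicate block, the quasi-likelihood test called 347 genes and gave *TNFRSF11B* a log2 fold change of 2.83 (edgeR FDR 0.00212), and *NGFR*, at 3.50, passed (edgeR FDR 0.0274). It changed no other call of the 6 tested genes. At this depth neither *TNFSF11* nor *TNFRSF11A* could be shown to differ.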

Other observations

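A ligand, an adaptor and a cytokine of the lists were higher in replicate 2 of both zones. They were picked with their values in view. *TNFSF15*, the gene of the ligand TL1A, had 1 and 28 counts in SZC replicates 1 and 2, against 1 and 116 in the DZC replicates, with a log2 fold change of -2.06 (SE 1.76, FDR 0.958 by edgeR's exact test). *TRAF5* had 1 and 23 counts in SZC replicates 1 and 2, against 3 and 33 in the DZC replicates, and *IL6*, a cytokine that TNF induces, had 16 and 65 counts in SZCs, against 3 and 73 in DZCs. In each of these genes the libraries of a zone differed more than the zones did. *CASP8*, the caspase that *FADD* recruits, had another pattern, with 152 and 162 counts in SZCs, 22 in DZC replicate 1 and 157 in DZC replicate 2, so that DZC replicate 1 stood apart from the other libraries.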
